A study of Mus musculus with 29 samples.

Results

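Aortic arch RNA of 5 wild-type mice killed at 22 weeks of age after dietary restriction (DR) was compared with that of 5 wild-type mice killed at 6 weeks of age while eating ad libitum (AL). The mice were selected by genotype, age and diet as labelled, and their 10 libraries are among the 29 of the series. The series also holds WT mice kept AL to 22 weeks and Ercc1Δ/- mice, which lack full function of a DNA repair nuclease and age prematurely, at the same ages and diets. All 10 mice were Ercc1 +/+ F1 hybrids of C57BL6J and FVB, littermates of the Ercc1Δ/- mice, and each group held 3 males and 2 females. The restricted mice received 10% less AIN93G food from 7 weeks of age and 30% less from 9 weeks, in individual housing, with food given shortly before the dark phase. The younger group was therefore killed before restriction began in the older group. Age and diet changed together between the groups and cannot be told apart in this contrast, so the AL 22-week WT mice are given beside it. Each arch was perfused with PBS and taken whole, and gene by gene fewer cells of a type and less RNA per cell cannot be told apart.

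The arterial wall is built by vascular smooth muscle cells and adventitial fibroblasts, which lay down elastic lamellae and collagen fibres mainly during development and early postnatal growth. These proteins turn over slowly, so a mature artery keeps its matrix with far less synthesis than a growing one. Collagen I and III chains form the tensile fibres, collagen IV and laminins form the basement membrane around each muscle cell, and fibrillin, elastin and the lysyl oxidases form and crosslink the elastic fibres. Dietary restriction lowers growth signalling through insulin-like growth factor 1 (IGF1) and shifts the daily rhythm of feeding, hormones and stress responses.

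Between 955589 and 9227924 counts fell on genes in the 6-week libraries and between 2660422 and 6124471 in the DR libraries, and the 2 shallowest libraries, 011 and 019, were both from 6-week mice. Levels below are CPM, a gene's counts relative to its library total after scaling by the trimmed mean of M values (TMM), and they compare libraries but not genes of unequal length. The p-values measure the spread between these mice, each of which gave 1 library. The smooth muscle identity of the tissue was borne by its contractile genes, whose summed level lay between 59414 and 73199 CPM at 6 weeks and between 63112 and 77305 CPM under DR. Ercc1 itself, which both groups carry intact, was at 27.4 ± 9.08 CPM (SD, n = 5) at 6 weeks and 30.9 ± 3.95 CPM (SD, n = 5) under DR. On the first 3 principal components of the 500 most variable genes the groups were compared by exact two-sided permutation tests, with p = 0.738 on the first component (33.2% of the variance), p = 0.159 on the second (20.3%) and p = 0.0397 on the third (15.9%), none adjusted for the 3 tests.

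Of 12353 genes tested, 258 were differentially expressed (2.09%), with 75 higher (0.607%) and 183 lower (1.48%) in the restricted 22-week mice. The call required a 1.2-fold change or more and p, adjusted by the Benjamini-Hochberg method, no higher than 0.05 in edgeR's quasi-likelihood test, fitted on the 10 libraries with group and sex. The median log2 fold change was 0.72 among the genes that rose and -0.66 among those that fell, against 0.01 over all genes tested. At least 2-fold changes were found in 19 of the genes that rose and 39 of those that fell. The groups did not overlap for 194 of the 258 genes, and for 485 of all genes tested (3.93%). Before adjustment, 1700 genes had p under 0.05.

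The decline was led by structural genes of the extracellular matrix. Over 6 lists of matrix genes with 128 members tested, 44 fell and 1 rose. Among the fibrillar collagens and the collagens that associate with them, 10 of 12 tested members fell, all 12 estimates were below 0, and the list median was -0.71. Col3a1 (chromosome 1, 45350698 to 45395840, GRCm39), the chain of type III collagen, had the smallest p of all genes and read 8561, 7996 and 6830 CPM in the 6-week males and 6249 and 6928 CPM in the females. Under DR it read 2294, 2284 and 2456 CPM in the males and 2469 and 2084 CPM in the females. Every restricted mouse was thus below every 6-week mouse by a wide margin, and the spread was also narrower, with 7313 ± 940 CPM (SD, n = 5) at 6 weeks against 2317 ± 157 CPM (SD, n = 5) under DR. The log2 fold change was -1.65 (SE 0.10, edgeR adjusted p = 9.26e-09).

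Both chains of type I collagen, the main tensile fibre of the wall, followed the same course. Col1a1 read 5356, 4328 and 3725 CPM in the 6-week males and 2861 and 3493 CPM in the females. In the DR males it read 1278, 1470 and 1352 CPM, and in the females 1601 and 1399 CPM. The groups were apart, and the change was -1.46 (SE 0.13, adjusted p = 3.74e-06, edgeR). Col1a2 fell from 7254 ± 1138 to 3566 ± 186 CPM (SD, n = 5 each), a log2 change of -1.01 (SE 0.10, adjusted p = 3.74e-06, edgeR), with the lowest 6-week library at 5940 CPM and the highest DR library at 3763 CPM. Of the collagens that regulate fibre width and join fibres to cells, Col5a2 changed by -0.69, Col6a3 by -0.80, Col6a1 by -0.64, Col14a1 by -0.53 and Col12a1 by -0.95, and all 5 passed, as did Col5a1 and Col6a2 (-0.41 and -0.55). The call of Col5a1 was lost in 13 of 23 alternatives, with adjusted p up to 0.127 when 1 library was left out (edgeR). Col5a3 (-0.73) and Col16a1 (-0.24) did not pass the test. Col11a1 and Col2a1 lay below the count filter, with at most 19 and 10 counts in any of the 10 libraries.

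**Figure D1:**
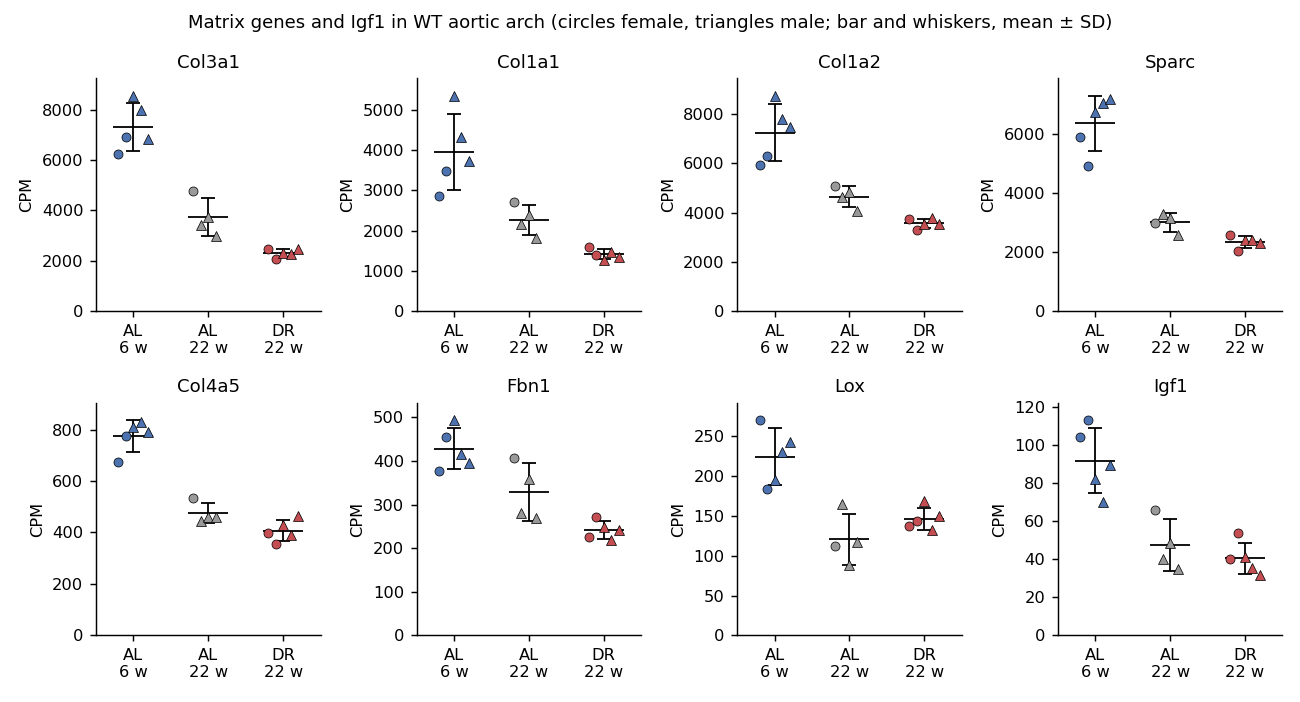
Levels (CPM, linear axes from 0) of 8 genes in each WT library at 6 weeks AL, 22 weeks AL and 22 weeks DR, with circles for females, triangles for males, and the mean ± SD of each group. The 5 restricted mice lay below all 5 of the 6-week mice in every panel, with Col3a1 at 2084 to 2469 CPM against 6249 to 8561 CPM.

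The sequences before the start sites of Col3a1 and Col1a2 are shown because these collagen genes moved together, and Col1a1 and Col4a3, which also changed by more than Col1a2, are not shown. RefSeq promoters (GRCm38.p6, a different build from that of the counts) were matched to 181 of the 258 genes. The window is the 250 bases before the start, 5′ to 3′ on the gene's strand, and the capitals mark a TATAAA match in Col3a1 (chr1:45311288-45311537, plus strand) and a CCAAT match in Col1a2 (chr6:4505368-4505617, plus strand).
Col3a1: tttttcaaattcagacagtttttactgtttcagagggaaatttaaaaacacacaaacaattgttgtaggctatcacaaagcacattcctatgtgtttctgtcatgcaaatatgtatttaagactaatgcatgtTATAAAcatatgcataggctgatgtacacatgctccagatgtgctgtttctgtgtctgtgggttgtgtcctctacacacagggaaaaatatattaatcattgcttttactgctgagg
Col1a2: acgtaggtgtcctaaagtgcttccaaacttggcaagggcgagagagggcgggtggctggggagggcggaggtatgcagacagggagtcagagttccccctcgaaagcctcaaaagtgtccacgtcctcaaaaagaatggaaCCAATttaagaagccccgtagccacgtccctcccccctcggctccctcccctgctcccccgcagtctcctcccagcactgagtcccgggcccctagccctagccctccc
Searched on both strands, TATAAA occurred in 12.4% and CCAAT in 33.8% of the 32851 RefSeq promoter windows of this length, so both matches are common and are given as description only.

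Genes that chaperone, cut and crosslink collagen fell with the chains they serve, in 8 of 25 tested members, with none higher and a list median of -0.25. Sparc (chromosome 11, 55285317 to 55314067, GRCm39) encodes osteonectin, a collagen-binding glycoprotein needed to process procollagen at the cell surface. It read 6749, 7054, 7187, 5920 and 4928 CPM at 6 weeks and 2411, 2412, 2311, 2568 and 2047 CPM under DR (males first). The groups were far apart, and the change was -1.43 (SE 0.10, adjusted p = 8.95e-08, edgeR). The other members that fell were Ctsk (-0.91), a collagen-degrading cathepsin, Pcolce (-0.57) and Bmp1 (-0.42), which trim the procollagen C-end, Adamts2 (-0.41), which trims its N-end, and Plod2 (-0.48), Fkbp10 (-0.44) and P3h3 (-0.36), which modify or fold the chains in the endoplasmic reticulum. The calls of Fkbp10 and P3h3 were lost in 14 and 12 of 23 alternatives, with adjusted p up to 0.161 and 0.122 when 1 library was left out (edgeR). Without DR library 021, 5 members fell and 1 rose, and without 6-week library 024, 6 fell and 1 rose. Ppic, a cyclophilin outside this list with the same kind of folding activity, fell by 0.88 (SE 0.10, adjusted p = 8.33e-05, edgeR).

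In the basement membrane list 9 of 20 tested members fell and none rose, with a median of -0.46. The type IV collagen chains did not all change to the same degree. Col4a5 fell from 776 ± 61.2 to 407 ± 42.1 CPM (SD, n = 5 each; log2 -0.93, SE 0.09, adjusted p = 3.74e-06, edgeR) and Col4a3 from 40.6 ± 7.44 to 18.6 ± 4.02 CPM (-1.16, SE 0.13, adjusted p = 5.65e-05). The common chains Col4a1 and Col4a2, which form most vascular basement membrane, fell by 0.48 and 0.45 on the log2 scale. Col15a1, which bridges the basement membrane to collagen fibres, fell from 1606 ± 257 to 914 ± 117 CPM (-0.82, SE 0.10, adjusted p = 0.000116, edgeR), and Nid1 (-0.78), Nid2 (-0.62), Lamc1 (-0.53) and Agrn (-0.48) also fell. Col4a2 and Nid2 lost their calls in 10 of 23 alternatives each.

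Elastic fibre genes fell in 6 of 21 tested members, again with none higher, at a median of -0.28. Fbn1, the microfibril scaffold fibrillin 1, read 494, 417, 396, 377 and 456 CPM at 6 weeks and 247, 219, 242, 226 and 272 CPM under DR. The groups were separate (-0.83, SE 0.10, adjusted p = 6.12e-05, edgeR). The crosslinking enzymes Lox and Loxl2 fell by 0.60 and 0.83, and the microfibril and elastin-binding genes Mfap4, Mfap5 and Fbln5 by 0.48, 0.48 and 0.39. The calls of Fbln5 and Mfap5 were lost in 8 and 5 of 23 alternatives. Of the list, 4 members fell without library 001, 010 or 028, 8 without 011 or 024, and 9 with DESeq2. Eln, elastin itself, read 5732, 7417, 6209, 3627 and 6053 CPM at 6 weeks and 3414, 2952, 3206, 2319 and 4381 CPM under DR. Its 6-week female library 011 lay inside the range of the restricted mice, and its change of -0.82 (SE 0.20) did not pass (adjusted p = 0.0669, edgeR). Summed over the list, the level was 12184 to 18233 CPM at 6 weeks and 10706 to 12388 CPM under DR (exact permutation p = 0.0159, two-sided, not adjusted for the other library measures tested).

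Of 28 tested proteoglycan and matricellular genes 7 fell and 1 rose (median -0.20), and of 22 matrix proteases and inhibitors 4 fell and none rose (median -0.25). Cilp, an intermediate layer protein that binds growth factors of the TGF-beta family, fell from 39.0 ± 7.49 to 12.5 ± 3.43 CPM (-1.68, SE 0.16, adjusted p = 3.74e-06, edgeR), and its relative Cilp2, outside the list, changed by -2.02. The CCN family member Ccn5 fell from 172 ± 49.1 to 72.5 ± 16.9 CPM (adjusted p = 3.74e-06, edgeR), and its relatives Ccn4 and Ccn2 changed by -1.27 and -0.69, Tnc (tenascin C) by -0.90, and the small proteoglycans Lum and Prelp by -0.41 and -0.35. The calls of Lum, Prelp and Ccn4 were lost in 13, 14 and 10 of 23 alternatives, with adjusted p up to 0.142, 0.125 and 0.105 when 1 library was left out (edgeR). Sparcl1, or hevin, the closest relative of Sparc, was the member that rose, from 1412 ± 232 to 2266 ± 314 CPM (0.67, SE 0.12, adjusted p = 0.00544, edgeR). Sparc and Sparcl1 therefore moved in opposite directions in the same 10 libraries, without overlap between the groups for either. Among the proteases, Mmp2 (-0.67), Htra3 (-0.66), Adamts8 (-0.62) and Htra1 (-0.42) fell. With libraries 011 and 019 left out, 3 proteoglycan and matricellular genes fell and none rose, and 4 fell without DR library 010, 017 or 028. Of the proteases 7 fell without 6-week library 011 and 2 without DR library 028.

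**Figure D2:**
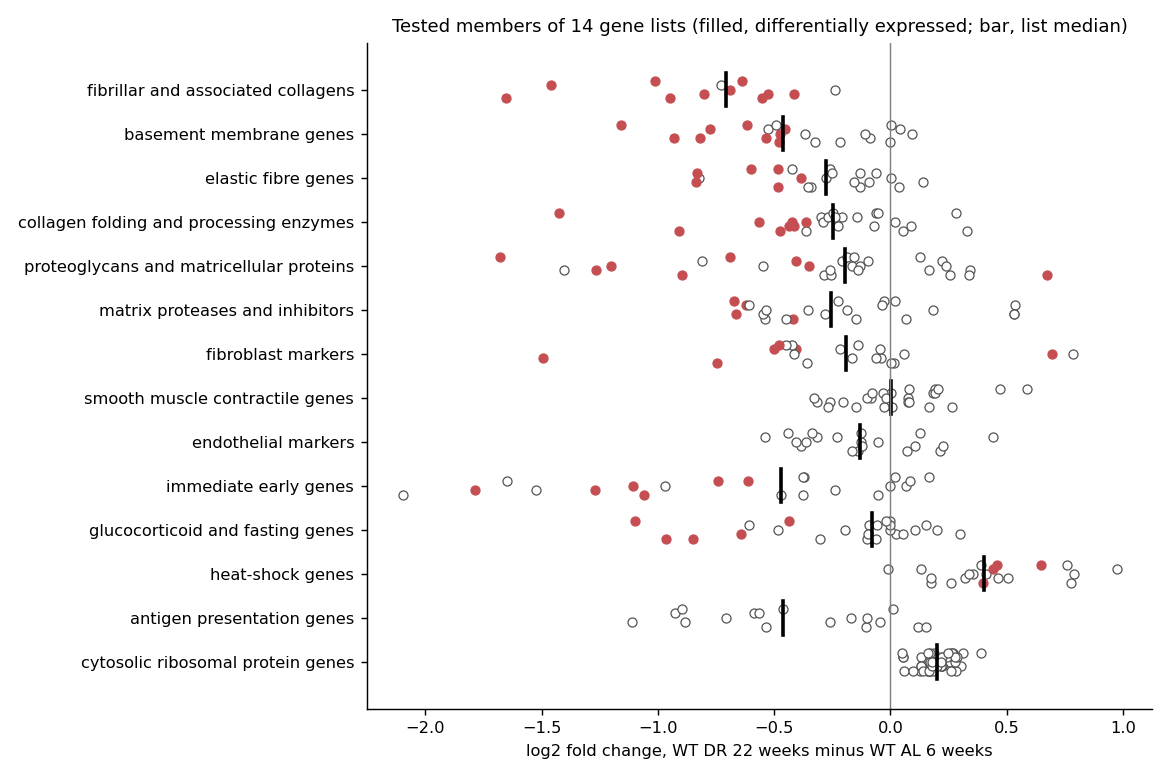
Each point is a tested gene, by list (rows) and log2 fold change of WT DR 22 weeks over WT AL 6 weeks (horizontal axis), filled where differentially expressed, with a bar at the list median. The medians of the matrix lists lay left of 0, from -0.71 to -0.20, that of the contractile genes at 0.00, and those of the heat-shock and ribosomal protein lists to the right, at 0.40 and 0.20.

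The contractile programme of smooth muscle did not show a comparable shift. None of 26 tested contractile genes passed in either direction, with a median of 0.00. Acta2 (smooth muscle actin) was at 10347 ± 2068 and 9289 ± 1195 CPM, Myh11 (smooth muscle myosin) at 12640 ± 1381 and 14417 ± 1878 CPM, and Tagln at 5817 ± 664 and 5743 ± 815 CPM (SD, n = 5 each). The ranges overlapped for all 3. No gene of 20 endothelial markers passed (median -0.13). Of 20 fibroblast markers 5 fell (Sfrp4, Fap, Ly6a, Serpinf1 and Dpt) and Dpep1 rose, with 2 that fell without DR library 010 or 028 or without both 011 and 019, 3 without 009, 011, 019 or 007, and 8 without 024. Dpt, Ly6a and Fap lost their calls in 12, 9 and 9 of 23 alternatives. The summed level of the fibroblast markers was 8066 to 9107 CPM at 6 weeks and 6732 to 8583 CPM under DR (exact permutation p = 0.151, two-sided). The part of cell composition in the matrix changes was not tested.

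Growth-related lists held 3 genes that fell, Igf1 among the IGF axis and Rian and Meg3 among imprinted genes. Igf1 (chromosome 10, 87693642 to 87772904, GRCm39), the growth factor that mediates much of the action of growth hormone, read 82.1, 69.8 and 89.4 CPM in the 6-week males and 104 and 113 CPM in the females. Under DR the males read 40.9, 35.3 and 31.7 CPM and the females 40.2 and 53.7 CPM. All restricted mice were lower (-1.18, SE 0.11, adjusted p = 3.74e-06, edgeR), and Igf1 was the only member called among 15 tested genes of the IGF axis (median 0.01). Of 16 tested imprinted growth genes 2 fell, namely the maternally expressed non-coding RNAs Rian (-0.89, SE 0.12, adjusted p = 0.000204) and Meg3 (-0.47, SE 0.10, adjusted p = 0.0171). Both lie on chromosome 12, where their annotated spans are near each other without overlap (Meg3 109506877 to 109538165, Rian 109570242 to 109628150, GRCm39). Igf2 and H19 were below the filter, with at most 6 and 11 counts per library. Of 48 listed cell cycle genes only 24 were tested, and none of these passed, although 19 estimates were below 0 (median -0.16). The mitotic genes Cdk1, Ccnb1 and Plk1 were among those below the filter, with at most 9, 6 and 18 counts per library. Top2a, which untangles replicated DNA, was at 2.52 ± 1.05 and 0.783 ± 0.387 CPM (adjusted p = 0.0586, edgeR). All 53 tested cytosolic ribosomal protein genes had estimates above 0, with a median of 0.20, and none passed.

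Immediate early genes, which are transcribed within minutes of a stimulus such as handling, feeding or ischaemia, fell in 6 of 21 tested members and rose in none (median -0.47). Btg2, an antiproliferative early gene, read 237, 196, 267, 176 and 128 CPM at 6 weeks and 49.6, 41.5, 55.8, 79.1 and 57.9 CPM under DR (males first). The groups did not overlap, and the change was -1.79 (SE 0.23, adjusted p = 0.00387, edgeR). Junb, a subunit of the AP-1 transcription factor, fell by 1.27 (SE 0.19, adjusted p = 0.0034), Zfp36, which destabilises cytokine mRNAs, by 1.06 (SE 0.14, adjusted p = 0.000204), and Dusp1, a MAP kinase phosphatase, by 1.11 (SE 0.20, adjusted p = 0.0183), all by edgeR. Klf2 (-0.61), a flow-responsive factor, and Ier2 (-0.74) also fell. Fos (-2.10, adjusted p = 0.109) and Egr1 (-1.65, adjusted p = 0.0848) spread widely, Fos from 38.8 to 199 CPM among the 6-week mice, and did not pass. By sex, the list median was -0.23 in females and -0.86 in males. The change differed between the sexes for 3 members, Fos among them, as given below. The number of members that fell ranged from 3 without DR library 028 to 10 without 6-week library 024. In the Ercc1Δ/- mice under the same contrast the list median was 0.04, and Btg2 changed by -0.11, Junb by 0.04 and Zfp36 by 0.04. The difference between the genotypes did not pass for any of these 3 genes (adjusted p = 0.226, 0.524 and 0.445, edgeR).

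Btg2 and Dusp1 carried a full cyclic AMP response element, the palindrome TGACGTCA, just before the start, shown in capitals for Btg2 (chr1:134079156-134079405, minus strand) and Dusp1 (chr17:26508473-26508722, minus strand). The element occurred in 1.55% of RefSeq promoter windows of this length, and it was looked for after the genes were known, so the match is a description. Promoters of Junb, Zfp36, Klf2 and Ier2, which also fell, are not shown, and whether they carry the element is not given here.
Btg2: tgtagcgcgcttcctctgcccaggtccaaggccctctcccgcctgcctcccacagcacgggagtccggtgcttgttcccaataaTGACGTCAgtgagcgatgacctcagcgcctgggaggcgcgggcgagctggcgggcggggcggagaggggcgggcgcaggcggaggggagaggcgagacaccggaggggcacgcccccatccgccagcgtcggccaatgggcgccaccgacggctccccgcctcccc
Dusp1: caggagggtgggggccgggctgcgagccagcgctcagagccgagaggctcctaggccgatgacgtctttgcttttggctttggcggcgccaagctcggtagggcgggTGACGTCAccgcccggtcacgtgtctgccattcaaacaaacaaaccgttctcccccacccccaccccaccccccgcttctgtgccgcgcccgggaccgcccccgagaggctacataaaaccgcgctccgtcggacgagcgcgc
The matches lay 158 and 135 bases before the start.

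Genes induced by glucocorticoids or fasting fell in 5 of 24 tested members and rose in none, although the list median was only -0.08. Sgk1, a kinase induced by corticosteroids, read 163, 137, 121, 111 and 126 CPM at 6 weeks and 62.2, 68.6, 81.6, 76.1 and 79.0 CPM under DR, without overlap (-0.85, SE 0.11, adjusted p = 0.000204, edgeR). Errfi1 (-0.96), Ddit4 (-1.10), Tsc22d3 (-0.64) and Klf9 (-0.43), all known glucocorticoid targets, fell as well. The same 5 genes changed by 0.33, 0.71, 0.87, 0.84 and 0.19 in the Ercc1Δ/- mice and none passed there, and the genotype difference did not pass for any of them. The hour at which the mice were killed is not given in the sources used here, and its part in these lists was not tested. Of 19 tested clock genes none passed, although 10 had an unadjusted p under 0.05 (edgeR), against 1700 of all 12353 genes tested. Their estimates ran from -2.13 to 1.53, with 8 above 0, 11 below 0 and a median of -0.20. Dbp, a strongly rhythmic output gene, spread from 63.9 to 418 CPM among the 6-week mice alone.

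**Figure D3:**
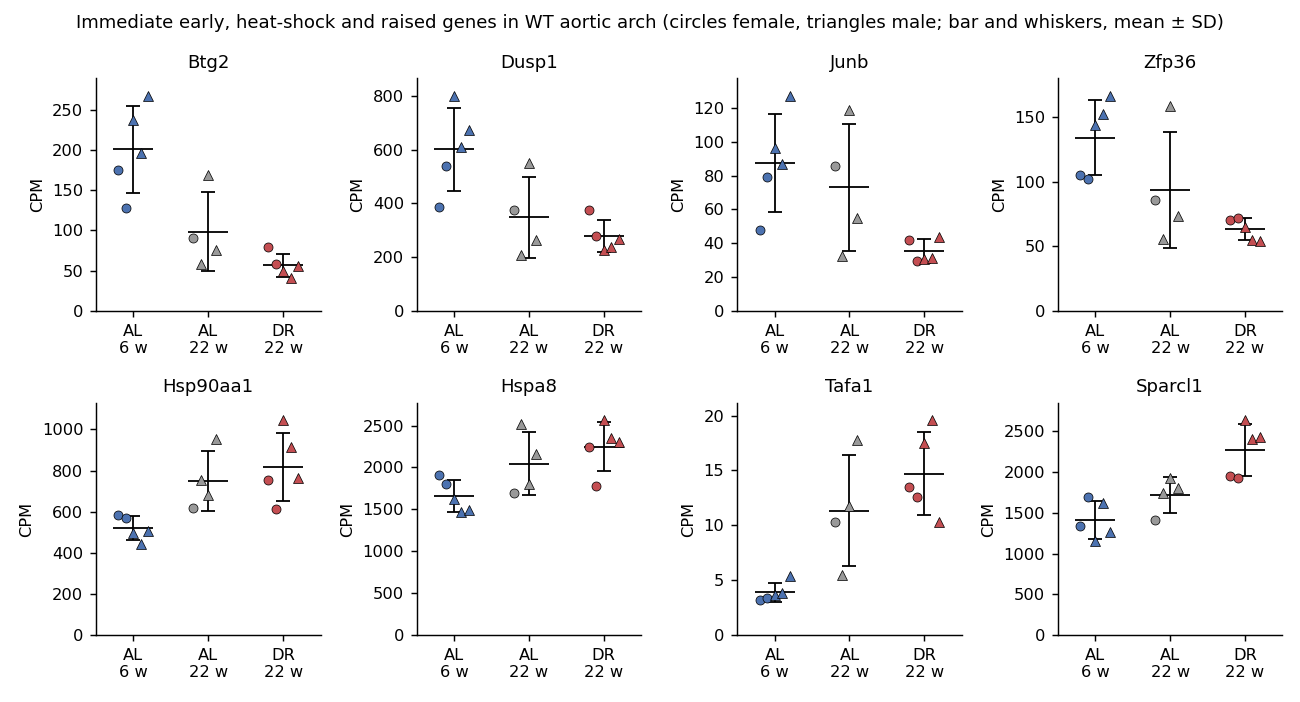
Levels (CPM, linear axes from 0) of 4 immediate early genes, 2 heat-shock genes and 2 further genes that rose, in each WT library at 6 weeks AL, 22 weeks AL and 22 weeks DR, with circles for females, triangles for males and the mean ± SD. Btg2 lay at 128 to 267 CPM at 6 weeks and 41.5 to 79.1 CPM under DR, and Hsp90aa1 at 442 to 586 against 615 to 1045 CPM.

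Heat-shock genes moved the other way. Of 20 tested members 4 rose and none fell, 19 estimates were above 0, and the median was 0.40. Hsp90aa1, the inducible cytosolic HSP90, read 499, 442, 505, 586 and 569 CPM at 6 weeks and 1045, 915, 763, 752 and 615 CPM under DR (0.65, SE 0.13, adjusted p = 0.011, edgeR). The restricted mice were all higher, though the lowest of them lay close to the highest 6-week mouse. Hspa8 (0.44, adjusted p = 0.0389), Hsp90ab1 (0.40, adjusted p = 0.0401) and the co-chaperone Stip1 (0.46, adjusted p = 0.0447) passed narrowly. These calls rested on individual libraries, since 1 member passed without 009, 019, 007, 010, 017 or 028, 2 passed without 001 or 011, 6 without 021 and 7 without 024. None passed without libraries 011 and 019, with a median of 0.35. Hsp90aa1, Hsp90ab1 and Hspa8 have near-identical processed pseudogenes, so some of their reads could not be placed uniquely. In the Ercc1Δ/- mice the list median was -0.02.

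The 15 genes with the smallest p among those that rose were of mixed function. Tafa1 (chromosome 6, 96090088 to 96635542, GRCm39), a secreted peptide of the chemokine-like TAFA family, read 3.67, 3.83, 5.39, 3.25 and 3.40 CPM at 6 weeks and 17.5, 19.6, 10.3, 13.5 and 12.6 CPM under DR. The groups were well apart (1.94, SE 0.23, adjusted p = 8.91e-05, edgeR). Enpp2, or autotaxin, which makes lysophosphatidic acid, rose from 44.4 ± 3.48 to 78.8 ± 15.6 CPM (0.84, SE 0.13, adjusted p = 0.00117), and Enpp5 of the same family from 47.0 ± 4.10 to 69.0 ± 7.07 CPM (0.57, SE 0.10, adjusted p = 0.00544). Penk, the precursor of enkephalin peptides, rose from 5.38 ± 3.48 to 17.5 ± 2.24 CPM (1.42, SE 0.27, adjusted p = 0.00769). Kcnc4 (0.97), a potassium channel subunit, and Scn2b (0.84), a sodium channel subunit, also rose, as did Tnfrsf25 (0.92), a death-domain receptor, Vit (0.72), a matrix protein with von Willebrand domains, Rasl10b (1.49) and Prune2 (1.27).

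The largest estimate among the genes that rose was that of Angptl8, an inhibitor of lipoprotein lipase made by fat and liver in the fed state, which read 1.83, 1.77, 0, 3.25 and 0.658 CPM at 6 weeks and 3.07, 5.09, 5.75, 14.9 and 17.8 CPM under DR (males first). The 2 restricted females stood above the 3 restricted males, and the groups overlapped (2.66, SE 0.49, adjusted p = 0.00745, edgeR). The estimate was 1.75 without 6-week library 024 and 3.23 without 001, and Angptl8 did not pass in males only, without the sex term or without libraries 011 and 019. Acss1, a mitochondrial acetate-activating enzyme, rose by 0.85 and Fetub, a secreted cystatin, by 1.63. Of the other large changes, Ibsp (1.65), Lonrf3 (1.86), Trnp1 (1.60), Coch (1.37) and Celf4 (1.33) rose, and Depp1 (-2.36), Aplnr (-2.54), Fndc5 (-2.17), Hmcn2 (-1.67), Gm9910 (-1.73) and 5430431A17Rik (-1.56) fell. Aplnr, the apelin receptor, was at 1.76 to 5.09 CPM at 6 weeks and at most 1.05 CPM under DR, 2 of whose libraries held no count, and its size is correspondingly uncertain (SE 0.59). The call was lost in 11 of 23 alternatives for Hmcn2, in 10 of 23 for Ibsp, in 9 of 22 for Aplnr, in 7 of 23 for Depp1, in 5 of 22 for Fndc5 and in 5 of 23 for Coch and Celf4, with adjusted p up to 0.114 for Hmcn2, 0.0881 for Ibsp and 0.0994 for Aplnr when 1 library was left out (edgeR).

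Among signalling lists, Hhip, an antagonist of hedgehog ligands, rose (0.73) and the secreted Wnt antagonists Sfrp4 and Frzb fell (-1.50 and -0.65) among 22 tested Wnt, Notch and hedgehog genes. Chrdl1, a BMP antagonist, rose (0.97) among 24 tested TGF-beta and BMP genes, Uchl1 (0.50) among 10 nerve genes, Ddit3 (0.59) among 25 endoplasmic reticulum stress genes, and Gpnmb (0.66) among 13 lipid-handling macrophage genes. These single genes did not stand for their lists, whose medians were 0.04, -0.40, -0.06 and -0.02 in the same order. Estimates were below 0 for 12 of 24, 8 of 10, 14 of 25 and 7 of 13 members. The summed nerve markers stood at 1819 CPM in 6-week library 001. They read 361 to 427 CPM in the other 6-week libraries and 366 to 424 CPM under DR. The calls of Ddit3 and Gpnmb were lost in 8 and 12 of 23 alternatives. Across all 48 lists, 17 held at least 1 called gene, 30 held none, and the T and NK cell list had no member above the filter. Among the lists without a call were 17 antigen presentation genes (median -0.46), 22 type I interferon-stimulated genes (-0.19), 22 p53 targets and senescence genes (0.06), 19 vasoactive hormones and receptors (-0.01) and 20 fatty acid synthesis genes (0.41).

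The AL 22-week WT mice (4 libraries) split the contrast into a step of age on AL food and a step of diet at 22 weeks. Only library 018 of the 4 was from a female, and the fit assumed the same steps in both sexes. In a fit of the 14 WT libraries the age step had 54 differentially expressed genes (0.437%) and the diet step 91 (0.737%), and the steps share the AL 22-week mice with each other and the remaining libraries with the contrast above. Of the 258 genes, 31 were also called in the age step and 31 in the diet step. The median over the 183 genes that fell was -0.31 for the age step and -0.38 for the diet step, and over the 75 that rose 0.31 and 0.35. Since the 258 genes were selected on the sum of the steps, these medians describe them and are not a test.

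Individual genes divided differently over the steps. Sparc was at 3009 ± 316 CPM (SD, n = 4) in the AL 22-week mice, with an age step of -1.09 (adjusted p = 1.78e-05) and a diet step of -0.34 (adjusted p = 0.147, edgeR). Col3a1 was called in both, at -0.97 (adjusted p = 0.000818) and -0.69 (adjusted p = 0.0129). Nrep, a regulator of TGF-beta, was likewise called in both, at -0.69 and -0.66. Igf1, Col4a5, Col5a2, Lox and Sgk1 passed only the age threshold, with age steps of -0.88, -0.71, -0.67, -0.89 and -0.69 beside diet steps of -0.30, -0.22, -0.02, 0.29 and -0.16. Ccn5 and Col6a3 passed only the diet threshold, with -0.97 and -0.48 beside age steps of -0.24 and -0.32. Among the genes that rose, Tafa1 (1.60), Vit (0.77), Enpp5 (0.57) and Prune2 (1.14) were called for age, and Angptl8 (2.66), Fetub (1.25), Celf4 (1.59) and Acss1 (0.84) for diet. The steps were not tested against each other for any gene.

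The AL 22-week mice spread widely in antigen presentation genes. Both steps use these 4 libraries, so a rise in them, by chance or otherwise, raises 1 step and lowers the other. The part of chance was not tested. The list had a median of 0.71 over the age step and -1.18 over the diet step. In the same order, medians were 0.39 and -0.63 for type I interferon-stimulated genes and 0.59 and -0.87 for interferon-gamma inducible GTPases. They were 0.32 and -0.39 for chemokines and adhesion molecules and 0.29 and -0.20 for complement components. H2-Ab1, a class II chain, was at 12.1 ± 1.77 CPM at 6 weeks, 39.6 ± 27.8 CPM in the AL 22-week mice and 6.83 ± 3.78 CPM under DR, with an age step of 1.64 (adjusted p = 0.0394) and a diet step of -2.57 (adjusted p = 0.00424, edgeR). Its direct change of -0.90 did not pass (adjusted p = 0.135). The invariant chain Cd74 was at 27.4 ± 10.7, 72.3 ± 50.1 and 12.9 ± 7.28 CPM in the same order.

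Most of the 258 genes changed in the same direction in the Ercc1Δ/- mice, which share no library with the WT contrast. There, 693 genes were differentially expressed between AL 6 weeks and DR 22 weeks (5.61%). Of the 183 genes that fell in WT, 170 had estimates below 0 in Ercc1Δ/- mice, against 49.5% of all genes tested, and 115 were called lower, against 3.51% of all genes. Of the 75 that rose, 67 had estimates above 0 (50.5% of all genes) and 33 were called higher (2.1% of all genes). The median changes of these genes in Ercc1Δ/- mice were -0.73 and 0.55. Col3a1 changed by -2.59, Col1a1 by -2.32, Sparc by -1.96 and Col15a1 by -1.67 in Ercc1Δ/- mice, each a larger estimate than in WT, but the difference from WT did not pass for any of the 4 (adjusted p = 0.279, 0.379, 0.28 and 0.0756, edgeR).

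**Figure D4:**
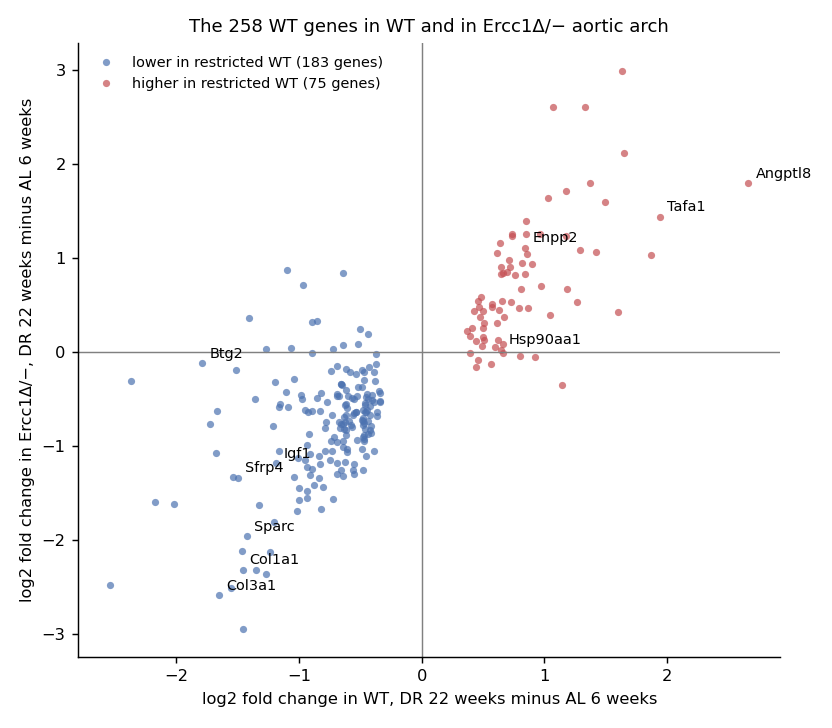
Log2 fold change from AL 6 weeks to DR 22 weeks in WT (horizontal axis) and in Ercc1Δ/- mice (vertical axis) for the 258 genes called in WT, 183 lower in blue and 75 higher in red. Col3a1 lay at -1.65 and -2.59, Tafa1 at 1.94 and 1.44, and Btg2 near 0 on the vertical axis only (-1.79 and -0.11).

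A test of the genotype difference itself, fitted on 20 libraries, called 1 gene (0.0081%), and 1005 genes had an unadjusted p under 0.05. Wif1 (chromosome 10, 120869865 to 120936555, GRCm39), a secreted inhibitor of Wnt ligands, was at 74.4 ± 20.3 CPM at 6 weeks and 71.5 ± 13.2 CPM under DR in WT mice, and at 42.6 ± 4.25 and 16.7 ± 5.13 CPM in Ercc1Δ/- mice (SD, n = 5 each). Its change was -0.05 in WT and -1.34 in Ercc1Δ/- mice, a difference of -1.28 (SE 0.22, adjusted p = 0.0416, edgeR). The call was lost with limma voom (adjusted p = 0.0642), with scaling by library size alone (adjusted p = 0.0551, edgeR) and in the fits without WT libraries 009, 011, 019, 024, 007, 017 or 028 (adjusted p = 0.0557 to 0.145). The next 4 genes by p, Mfap4 (-0.75), Sh3bgr (-0.65), Apod (1.96) and Wwp2 (-0.72), did not pass (adjusted p = 0.0756 for each).

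Finally, the change differed between the sexes in 49 genes (0.397%), in all of which it was less positive in males, and 866 genes had an unadjusted p under 0.05. In 45 of the 49 the estimate was above 0 in females and below 0 in males. The females were 2 in each group, and none of the 49 was among the 258. Acss2, which makes cytosolic acetyl-CoA from acetate, read 29.3 and 26.9 CPM in the 6-week females and 126 and 122 CPM in the DR females. In the males it read 66.8, 59.2 and 37.8 CPM at 6 weeks and 40.9, 49.8 and 39.7 CPM under DR. The female change was 2.16 and the male change -0.39, a difference of -2.56 (SE 0.26, adjusted p = 4.21e-05, edgeR). Me1, which supplies NADPH for fatty acid synthesis, changed by 1.83 in females and -0.36 in males, Acly, which makes acetyl-CoA from citrate, by 2.30 and -0.29, Aldh1a7 by 3.05 and -0.38, Lgals12, a galectin of adipocytes, by 1.36 and -1.30, and Hibch, of valine breakdown, by 1.05 and -0.72. The adipocyte genes Pnpla3 (2.39 and -1.16), Adrb3 (1.43 and -0.58), Slc2a4 (1.06 and -0.23) and Adig (2.11 and -0.36) and the early genes Fos (-0.57 and -3.01), Jun (0.24 and -0.93) and Nr4a1 (-0.12 and -1.49) also belonged to the 49 and are named after their values were seen. By list, the 49 held 5 of 44 tested nuclear respiratory chain subunits, whose median change was 0.65 in females and -0.17 in males. They also held 4 of 20 fatty acid synthesis genes, 3 of 21 immediate early genes, 2 of 23 antioxidant genes and 1 of 3 thymus markers. The number of genes fell to 5 without female 024 and rose to 181 without female 011.

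Levels of fat markers in the same animals are given beside these genes. No tested member of the white or brown fat marker lists was called for the group change or for the sex difference. Lgals12, Pnpla3, Adrb3, Slc2a4 and Adig, named above among the 49 genes, were not tested members of these lists. The summed white fat markers read 3200 and 4721 CPM in the 6-week females, 5472 and 6808 CPM in the DR females, 2869 to 3613 CPM in the 6-week males and 1918 to 2880 CPM in the DR males. The summed brown fat markers read 402 and 873, 953 and 1149, 419 to 589 and 205 to 428 CPM in the same order. The median change over 15 tested white fat markers was 0.83 in females and -0.59 in males, and over 20 fatty acid synthesis genes 1.76 and -0.38. The part of perivascular fat in the sex difference was not tested. In the Ercc1Δ/- mice the same test called no gene by edgeR, with 680 genes at an unadjusted p under 0.05. Of the 49 genes, 47 had the same sign there, against 52.2% of all genes below 0, and none reached an unadjusted p under 0.05.

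**Figure D5:**
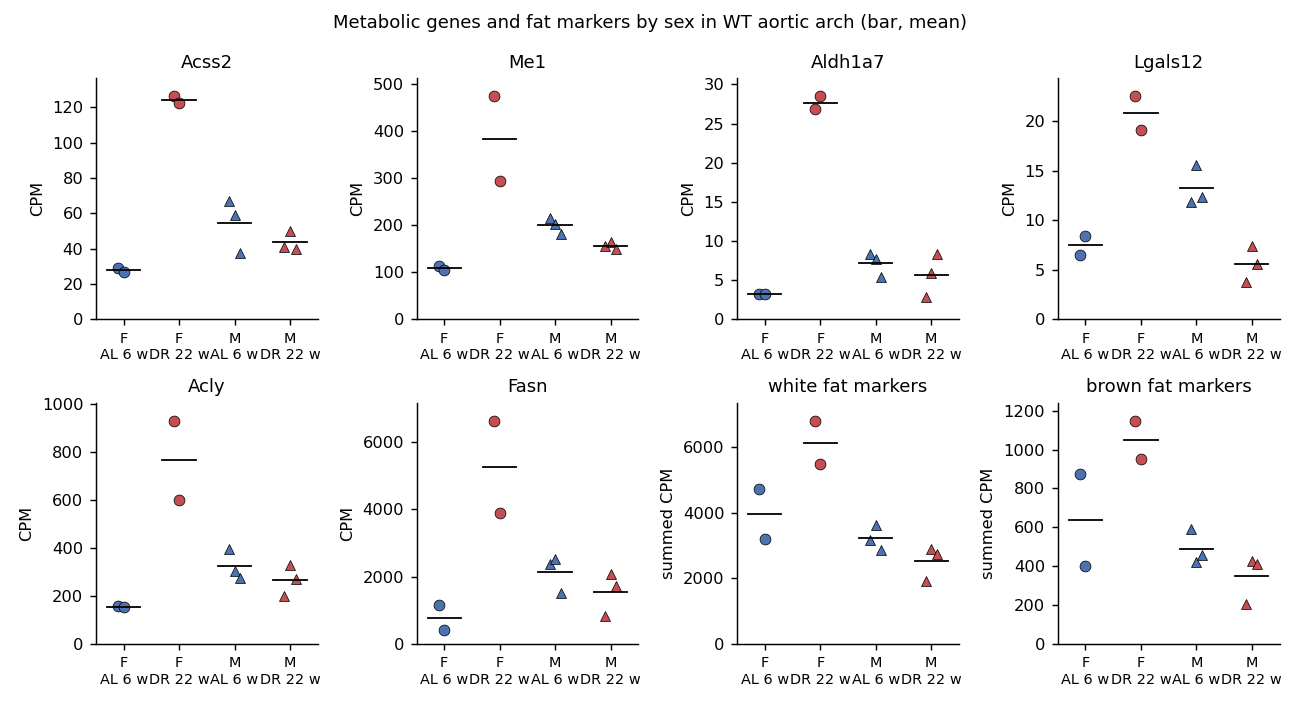
Levels (CPM, linear axes from 0) of 6 genes and the summed levels of white and brown fat markers in the WT females (circles) and males (triangles) at 6 weeks AL (blue) and 22 weeks DR (red), with a bar at each mean. Acss2, Me1, Aldh1a7, Lgals12 and Acly belonged to the 49 genes and Fasn did not. Acss2 was at 26.9 to 29.3 CPM in 6-week females and 122 to 126 CPM in DR females, and the fat markers were higher in DR females than in DR males.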

How the data were processed

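RNA of 29 aortic arches was sequenced, 1 library per mouse. The authors processed reads with UMI-tools 1.1.2, fastp, STAR 2.7.10a and HTSeq 2.0.2 against GRCm39 and deposited whole-number counts per gene (56748 genes) without normalization, and the 5 lines of unassigned reads were kept out of library sizes. The strand setting of the counting is not given in the sources used here. A gene was tested if over 10 of 28 libraries each held over 10 of its counts (WT AL 22-week library 003, excluded by the study, was not used). Fits of group and sex were made by edgeR's quasi-likelihood method (version 4.0.16, in R 4.3.3), with limma 3.58.1 voom and DESeq2 1.42.0 as alternatives. Library measures were compared by exact permutation tests, whose smallest possible p is 0.00794 over 252 regroupings, without adjustment for the number of measures. Named genes were Ercc1, the 15 smallest p and 10 largest folds per direction, called or defining list members, and the 5 smallest p of each interaction. The contrast, gene lists and tests were chosen with earlier results of these data known. On counts simulated for the WT DR against WT AL 6-week comparison (12353 genes), edgeR recovered 77 of 100 genes changed 2-fold and 91 of 100 changed 3-fold and called 8 unchanged genes. Replicates of a group differed beyond sampling noise (chi-square per degree of freedom 3.26 to 23.0), so none was merged. Depth ranged from 955589 to 9227924 counts on genes, so low genes of the shallowest library rest on few counts.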

Additional observations from a re-analysis of the deposited data

Results flagged for a closer look

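Of 256 checks of 5 libraries each, over 103 named genes and the library measures in both groups, 12 had 1 library far from the other 4, where chance alone gives about 1 in 20. In the 6-week group these were Tafa1 at 5.39 CPM in library 019 (others 3.25 to 3.83), Acss1 at 34.7 CPM in library 011 (others 15.0 to 20.1) and Hmcn2 at 41.9 CPM in library 024 (others 60.9 to 67.5). In the DR group they were Enpp5 at 81.2 CPM in library 007 (others 64.2 to 68.9), Dpep1 at 188 CPM in library 010 (others 125 to 143), Col6a2 at 1138 CPM in library 010 (others 897 to 955) and Klf2 at 52.0 CPM in library 017 (others 34.1 to 39.1). Male 001 at 6 weeks stood apart in the summed markers of nerve and Schwann cells (1819 CPM, others 361 to 427), of lymphatic, mesothelial and red cells (1563 CPM, others 221 to 372) and of T and NK cells (37.1 CPM, others 3.25 to 4.83). Female 024 at 6 weeks stood apart in heart muscle genes (135 CPM, others 87.2 to 101) and B and plasma cell markers (179 CPM, others 129 to 143).

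The change from AL 6 weeks to DR 22 weeks differed between the genotypes for Wif1 (-1.28). It differed between the sexes for 49 genes, led by Acss2 (-2.56), Me1 (-2.19), Hibch (-1.78), Aldh1a7 (-3.43) and Lgals12 (-2.67), given as male minus female on the log2 scale by edgeR.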

How the results depend on the processing

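The 258 genes (75 higher, 183 lower) became 408 (130 and 278) with DESeq2, 93 (19 and 74) when edgeR tested against the 1.2-fold change itself, and 539 (213 and 326) with no filter on low counts, where 24931 genes were tested and 60.5% of calls were lower against 70.9%. With library sizes alone 62.9% were lower. Of the 258 genes, 258 were called in the same direction by DESeq2, 245 by limma voom, 152 after thinning to the shallowest library, 144 in males only and 155 without DR library 028. Leaving out 1 library gave 161 to 374 genes, 41 to 151 higher and 120 to 223 lower, with the lowest counts without DR library 028 and the highest without 6-week library 024. Without DR library 010 41 genes were higher. Without libraries 011 and 019, an alternative chosen after the data were seen, 40 were higher and 156 lower. Col3a1, Col1a1, Col1a2, Sparc, Col4a5, Cilp, Igf1, Fbn1, Sgk1, Tafa1 and Enpp2 passed in all 23 alternatives. Ercc1, which was not called (0.045), ranged from -0.057 without 6-week library 011 to 0.21 without 024, with -0.013 without 019, -0.036 without DR library 028 and -0.13 without 011 and 019.

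The genotype difference was called for 64 genes with DESeq2, none with limma voom or library sizes alone (1086 and 953 genes at an unadjusted p under 0.05), 288 with no filter, 5 after thinning to the shallowest library, and 0 to 12 when 1 WT library was left out. The sex difference was called for 88 genes with DESeq2, 270 with no filter, and 5 to 181 when 1 library was left out, with 5 without female 024 and 181 without female 011, where 1 female was left at 6 weeks and was assumed to vary like the other mice. It was called for 16, 27, 27 and 14 genes without 001, 009, 007 and 017. The cause of these shifts was not tested. No paired analysis was possible because each mouse gave 1 library and the library numbers are unique. Library 011 held the fewest counts (955589), and 261 genes were called without it.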

Other observations

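Several further genes that were called, named here after their values were seen and belonging to no list above, add to the description. Aldh18a1 and Pycr1, which catalyse steps in making proline, an amino acid abundant in collagen, fell from 33.4 ± 6.48 to 18.4 ± 3.44 CPM and from 12.5 ± 3.11 to 5.53 ± 1.09 CPM (log2 -0.92 and -1.16, edgeR adjusted p = 0.00257 and 0.00595), and the groups did not overlap for either. Ptgs2, the inducible cyclooxygenase, fell from 30.5 ± 9.48 to 10.5 ± 2.69 CPM (-1.51, adjusted p = 0.000427), also without overlap.

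Casq1 (-1.47), Synpo2l (-1.24), Mybpc2 (-1.54) and Myoz2 (-0.52), chosen after their values were seen, fell, and the groups did not overlap for any of the 4, with Casq1 at 73.7 to 170 CPM at 6 weeks and 34.6 to 63.1 CPM under DR.

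The summed heart muscle genes were at 87.2 to 135 CPM at 6 weeks and 144 to 250 CPM under DR. The two-sided exact permutation p was 0.00794, the smallest this design allows, and was not adjusted for the other library measures tested. None of the 7 tested members was called by edgeR, with 1 at an unadjusted p under 0.05 and 1 called by DESeq2. Most of the difference in the sum, from 102 ± 18.7 to 205 ± 45.8 CPM (SD, n = 5 each), lay in Tnnt2, cardiac troponin T, which was at 31.3 ± 19.9 and 112 ± 39.4 CPM (1.78, adjusted p = 0.135, edgeR). The list median was 0.27, and -0.50 without DR library 021. How much heart tissue stayed on the arch was not tested.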
